A study of Mus musculus with 2 samples.

Results

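Quiescent-like muscle stem cells were divided by Myod1, and the isoform shares of their genes were compared between the sides. The cells were chosen on measured values. A barcode of the 10% aliquot was kept when it held 3000 to 15000 short-read UMIs and at least 500 genes, and no UMI of the cycling genes Rrm2, Top2a, Cdk1 and Mki67 or of the immune genes Ptprc and Tyrobp. Of 1991 barcodes, 178 had the UMIs and the genes, and 155 of these had none of the 6 genes. Myod1 had 0 short-read UMIs in 72 of the 155 cells (Myod1-0 cells), 1 UMI in 11 cells and 2 or more UMIs in 72 cells (Myod1-positive cells). The cells just inside the window held 3103 and 14226 UMIs, and the nearest barcodes outside it held 2993 and 15172. At the Myod1 limit, 4 cells had 2 UMIs and 10 had 3.

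The animals were Pax7creERT2R26-eYFPfl/fl mice on C57BL6, aged 3 months, in which 100 µL of tamoxifen at 20 mg/ml had marked Pax7-expressing cells with YFP. Muscles of uninjured mice gave the quiescent cells, and muscles taken 72 h after injection of 1.2% BaCl2, which kills fibres and starts regeneration, gave the activated cells. YFP-positive cells of both kinds were sorted and run in 1 droplet capture, so the labels do not say which cell came from which muscle. The droplets were divided into a 10% aliquot, sequenced on Illumina and nanopore instruments, and a 90% aliquot, sequenced on Illumina only. There is 1 capture and no replicate, so cells are described and no p-value is given.

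Muscle stem cells lie beneath the basal lamina of the fibre, express the transcription factor Pax7 and stay out of the cell cycle until injury. Myod1 encodes the basic helix-loop-helix factor that commits cells to the myogenic fate, and its transcript appears early when the cells leave quiescence. Heyl, an effector of Notch signalling, Spry1, an inhibitor of growth factor signalling, and Chrdl2, a secreted antagonist of bone morphogenetic proteins, are known from quiescent cells.

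The libraries had properties that bear on all results. All 155 barcodes were also present in the 90% short-read table, each was closest to its own barcode there among the 155, and 143 met the same rule there. The median correlation with the own barcode was 0.924, against 0.675 with the other barcodes. They were treated as the same cells, and level comparisons with the 90% aliquot below use only the 985 cells of the rule whose barcode was not in the 10% list. Of these, 515 were Myod1-0 and 406 Myod1-positive. The rule left some cells on the Myod1-0 side that had UMIs of genes of other cell types or much of the small nuclear RNA Rn7sk. One cell held 39 UMIs of Pmp22, a gene of myelinating cells. Another held 41 UMIs of Fabp4, 6 of Cdh5 and 5 of Pecam1, which are endothelial genes. A pair of cells held 12 and 9 UMIs of the collagen gene Col1a2 with 39 and 53 of Mest, but also 8 and 5 of the muscle gene Des. In a further pair Rn7sk held 12.04% and 6.53% of the UMIs, with 0 UMIs of the other-type markers counted. The type of the cells in both pairs was not determined. These 6 cells were on the Myod1-0 side and none was on the Myod1-positive side. Their part in the results was not tested beyond leaving them out. Without them 108 of 1164 genes had an isoform share difference of 20 points or more, where all cells gave 120 of 1226.

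Depth was alike on both sides. The Myod1-0 cells held 3103 to 13600 short-read UMIs (median 6792) and the Myod1-positive cells 3591 to 14226 (median 6489.5). The long-read UMIs per cell ranged from 2343 to 18596 (median 8289) and from 2143 to 16710 (median 8445.5), a ratio of medians of 1.02. In sum the isoform table held 627840 UMIs for the Myod1-0 cells, 105366 for the 11 cells with 1 UMI and 625534 for the Myod1-positive cells. The 91 barcodes with over 15000 short-read UMIs, 80.2% of which had Rrm2, held 4871083 and are given for comparison as the deep barcodes.

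Heyl, Chrdl2 and Spry1 were found at like levels on both sides of the Myod1 split and at far lower levels in the deep barcodes. Heyl was present in 33 of 72 Myod1-0 cells and in 34 of 72 Myod1-positive cells, at 129 and 136 CPM (the usual scaling of a gene's UMIs by the sum of all UMIs of the cells), against 13.8 CPM in the deep barcodes. Chrdl2 was present in 27 and 32 cells, at 151 and 188 CPM, against 0.94 CPM. Spry1 was present in 23 and 21 cells, at 129 and 127 CPM, against 5.65 CPM. The name quiescent-like was kept on these 3 genes. None of them separated the sides.

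Other genes of quiescent stem cells overlapped as well. Calcr, the calcitonin receptor, was seen in 5 and 7 cells, Pax7 in 12 and 10, the receptor Notch3 in 17 and 14 and the adhesion molecule Vcam1 in 27 and 23. Cd34 was seen in 10 and 6 cells and Hey1 in 4 and 5. Sdc4, a heparan sulphate proteoglycan, was seen in 55 and 65 cells, and Des, the intermediate filament of muscle, in 47 and 55. Hes1, a Notch effector, went the other way, with 23 and 13 cells, and so did Myf5, a myogenic factor, with 33 and 24 cells. All exact 95% intervals of these pairs overlapped. In CPM, Pax7, Calcr, Notch3, Cd34, Hes1, Vcam1, Sdc4 and Myf5 were lower in the deep barcodes than on either side. Des was not lower there (199 and 312 CPM on the sides, 319 in the deep barcodes). Hey1 was near level (9.93 and 9.88 CPM, against 8.67). By cells with a UMI, the deeper barcodes had more Pax7 (37.4%, against 16.7% and 13.9%) and Vcam1 (78.0%, against 37.5% and 31.9%). In the 90% aliquot, 18 barcodes with at least 10 UMIs of immune markers (median 9278 UMIs) were used to see what free RNA can give. Heyl and Chrdl2 had a UMI in 0 of the 18, which allows a share of up to 16.7%, and Spry1 in 1, while among the other quiescent-like cells there Heyl was seen in 40.6% of Myod1-0 cells (median 4518 UMIs) and 42.1% of Myod1-positive cells (median 4611.5 UMIs). Sdc4 had a UMI in 5 of the 18, and Myod1, Des and Pax7 in 2 each, with at most 12, 40 and 5 UMIs in a barcode. Whether free RNA or doublets gave these counts was not tested.

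Markers of other cells were summed as lists. Of the 6 immune markers Ptprc and Tyrobp were at 0 by the rule that chose the cells. Fcer1g and Lyz2 were also at 0 on both sides, and the list had 2 and 1 UMIs in sum. The 6 fibro-adipogenic markers summed to 39 UMIs in the Myod1-0 cells and 5 in the Myod1-positive cells, with Pdgfra and Lum at 0, and at most 18 and 2 UMIs in a cell. The 5 endothelial markers summed to 53 UMIs, all in 1 cell, and 0. The 4 mural markers summed to 47 and 36, nearly all of them Acta2, with Rgs5 and Myh11 at 0. The 6 myofibre markers summed to 39 and 32. Of the 6 markers of differentiating myoblasts Myog, Mymk, Mymx and Tnnt2 were at 0 on both sides, and the sums were 15 and 12.

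**Figure D1:**
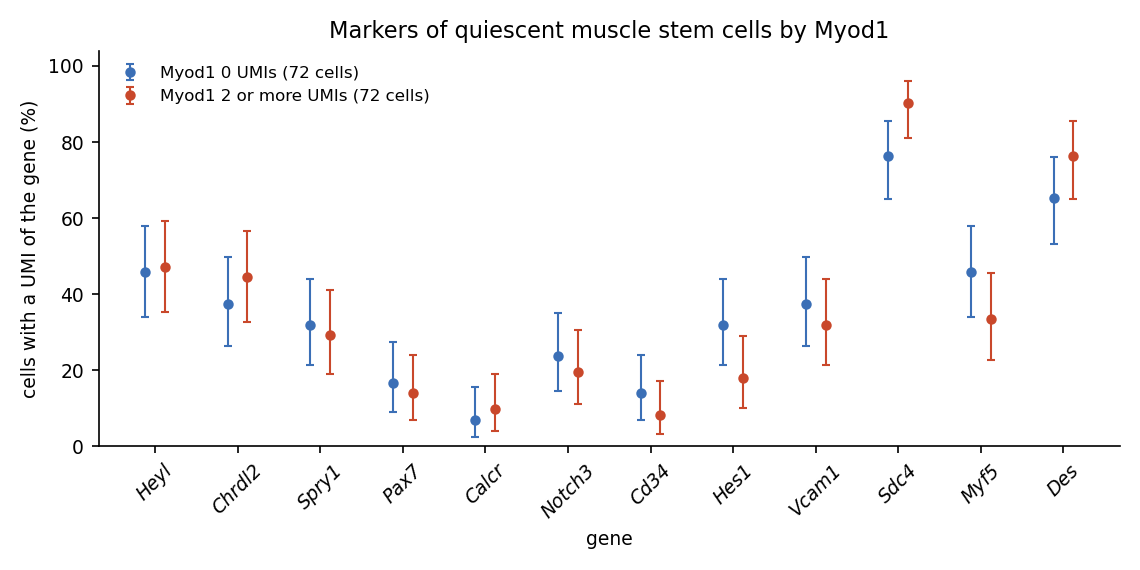
The plot gives the percentage of cells with at least 1 short-read UMI of each of 12 quiescent stem cell genes, for the 72 Myod1-0 cells (blue) and the 72 Myod1-positive cells (red). Bars are exact 95% binomial intervals, and the bars of the sides overlap for all 12 genes.

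Myod1 itself (chromosome 7, 46376474 to 46379099, plus strand, GRCm38) chose the sides, and its values are a description. In the Myod1-positive cells it had 1222 short-read UMIs, with 2 to 74 per cell, a median of 13 and quartiles of 4.75 and 22.25. Of the 155 cells, 44 had at least 10 UMIs. Cells with many Myod1 transcripts thus stood beside cells with none at the same depth. The level was 2416 CPM in the Myod1-positive cells and 190 CPM in the deep barcodes.

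The long reads counted the same transcript more often. They gave 4444 Myod1 UMIs in the Myod1-positive cells, 3.64 for each short-read UMI, while the ratio of all UMIs was 1.24 and the median ratio of the 1226 genes tested below was 2.95. All but 1 of the 72 cells had at least 2 long-read UMIs of Myod1, and the highest had 272. The Myod1-0 cells had 91 long-read UMIs in 44 of 72 cells (61.1%), at most 5 in a cell. That is 145 CPM of the long-read UMIs (exact Poisson 95% interval 117 to 178). In the 10% aliquot, 6 barcodes with immune markers (median 7816 short-read UMIs) had 7 Myod1 UMIs in 5 of the 6 (83.3%), or 87.2 CPM (35.1 to 180). These immune barcodes were deeper (median 12237 long-read UMIs, against 8289 in the Myod1-0 cells). The intervals of the rates overlapped, so the Myod1-0 cells were not distinguishable from those barcodes at this depth, and low expression was not tested. The 11 cells with 1 short-read UMI had 456 CPM (336 to 604).

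**Figure D2:**
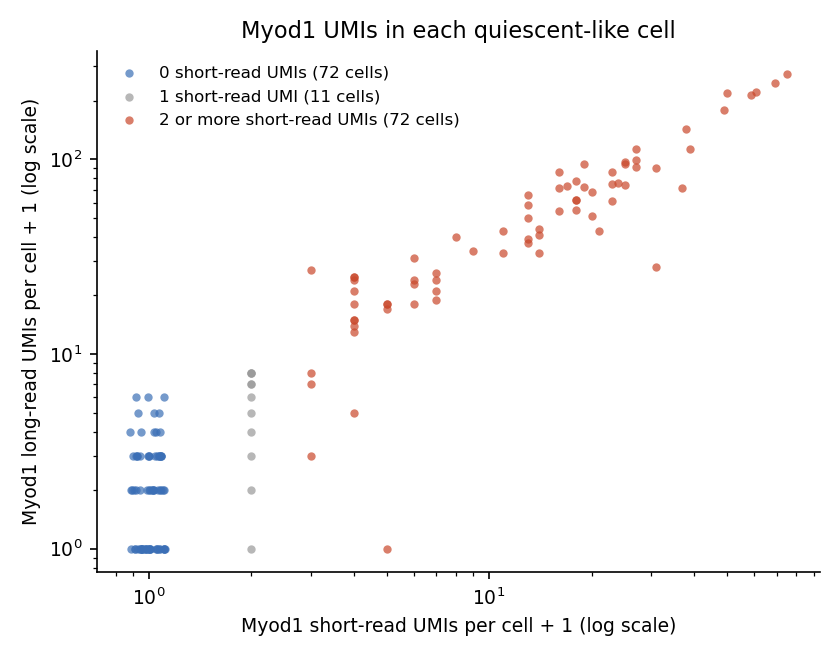
Each point is 1 of the 155 cells, with its Myod1 short-read UMIs plus 1 on the horizontal axis and its long-read UMIs plus 1 on the vertical axis, both on log scales; points at 0 short-read UMIs are spread sideways for visibility. Cells with 0 short-read UMIs had at most 5 long-read UMIs, and cells with 2 or more reached 272.

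The question was then whether the Myod1-0 and the Myod1-positive cells used the same isoforms. For each gene with at least 50 long-read UMIs on each side and at least 2 isoforms with more than 15 UMIs over both, the share of each isoform in the gene's UMIs was taken over the cells of a side, and the largest difference (Myod1-positive minus Myod1-0, in percentage points) was kept. Of 1226 genes, 120 (9.79%) had an isoform that differed by 20 points or more. It was higher in the Myod1-positive cells for 54 genes and lower for 66. The size of the difference followed the UMIs behind it. With 50 to 99 UMIs on the side with fewer, 108 of 529 genes reached 20 points and the median was 13.2 points. With 100 to 199 UMIs 10 of 321 genes did (median 8.69 points), and with 200 to 499 UMIs 2 of 202, Gm42418 and Dusp1 (median 5.55 points). Over all 376 genes with at least 200 UMIs these 2 are 0.532%, and over the 697 with at least 100 the called share was 1.72%. With 500 or more UMIs 0 of 174 genes did, the median was 1.90 points and the highest value 16.0. Of these 174 genes 75 encode ribosomal proteins, and the median over the 80 ribosomal protein genes tested was 1.11 points. The kind of gene thus changed together with depth, and their parts were not separated.

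**Figure D3:**
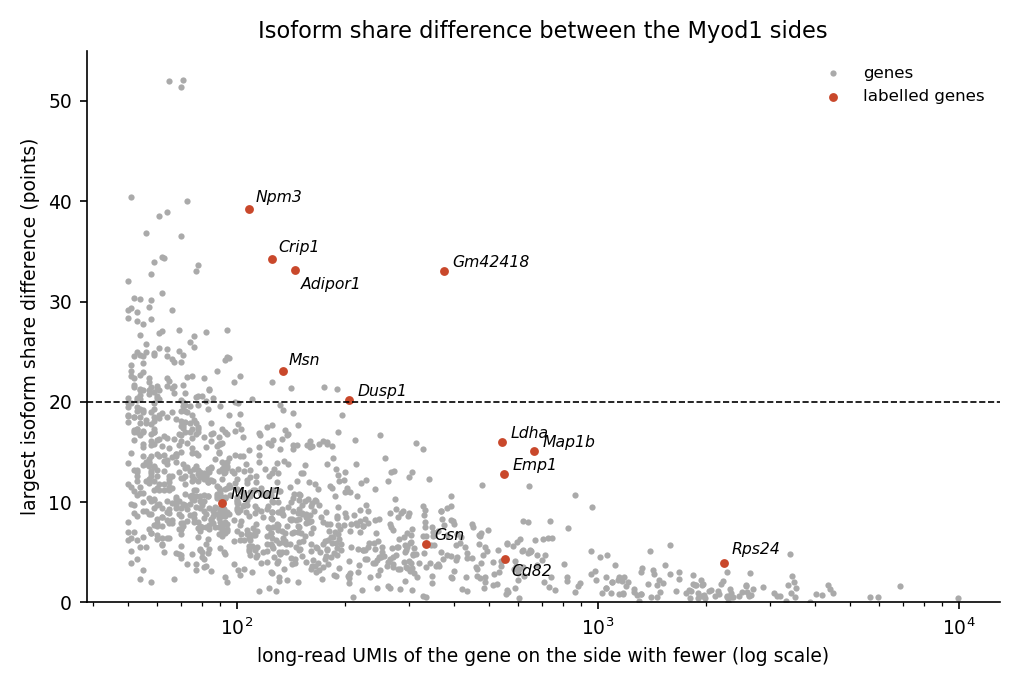
Each point is 1 of 1226 genes, with the long-read UMIs on the side with fewer on a log axis and the largest isoform share difference between the sides in points on the vertical axis; the dashed line marks 20 points. The differences narrow toward the right, from a median of 13.2 points under 100 UMIs to 1.90 points at 500 or more.

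The same genes were set against the deep barcodes. As above, 75 of the 174 genes with 500 or more UMIs encode ribosomal proteins. Among the 174 genes with 500 or more UMIs on each side, the median largest difference was 2.58 points between Myod1-0 cells and deep barcodes and 3.57 points between Myod1-positive cells and deep barcodes. The first was larger than the difference between the sides in 109 genes and the second in 122. The isoform with most UMIs was the same on both sides in 168 of the 174 genes (96.6%). The others were Emp1, Cryab, Eif3f, Chchd2, Rps25 and Id3, which were looked up after the count was seen. In Id3 the leading isoforms were tied at 47.8% of 671 UMIs in the Myod1-0 cells, so its top isoform is not shown to have changed. In Rps25 the leading isoforms held 49.3% and 49.1% in the Myod1-0 cells and 48.5% and 48.9% in the Myod1-positive cells, so the order changed and the shares did not move by 1 point.

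The genes with the largest differences at 100 or more UMIs on each side are described next, beginning with ribosome assembly and translation. Shares are followed by the Newcombe 95% interval of the difference. UMIs of 1 cell are not independent, so these intervals cover counting error only and are too narrow. Npm3 encodes a chaperone of the nucleoplasmin family found in the nucleolus (chromosome 19, 45747734 to 45749591). Its reference isoform ENSMUST00000070215.7 held 80.6% of 108 UMIs in the Myod1-0 cells and 41.3% of 109 UMIs in the Myod1-positive cells, a difference of -39.3 points (-50.1 to -26.6). It was found in 34 of 36 cells with the gene and in 21 of 35, with at most 10 and 4 UMIs in a cell. The deep barcodes had 83.1%, near the Myod1-0 cells. On the Myod1-positive side the rest was spread over isoforms without a reference name, the highest of them at 15.6%. With every cell given the same weight the difference was -37.4 points.

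Other translation genes differed less. Eif4g2 encodes a relative of the initiation factor eIF4G, and its isoform from 111071932 to 111083006 numbered 6 on chromosome 7 went from 26.5% to 47.8%, a difference of 21.3 points. Eif4b and Eif4a2 encode a cofactor and a helicase of initiation, and their named isoforms went from 42.6% to 60.4% and from 7.26% to 25%. The reference isoform of Pa2g4, a growth-regulated nucleolar protein, went from 18.2% to 37.8%. That of Srp9, a subunit of the signal recognition particle, went from 47.4% to 68.8% (difference 10.1 to 31.9 points). For Ddx39b, an RNA helicase of splicing and export, the reference isoform went from 76.7% to 56.4% (-31.6 to -8.45 points). With each cell given the same weight, Eif4b and Srp9 differed by 21.6 and 25.6 points and Eif4g2, Eif4a2, Pa2g4 and Ddx39b by 9.17, 8.74, 8.86 and -9.83 points.

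A second group belongs to membranes and the cell cortex. Adipor1, the adiponectin receptor (chromosome 1, 134415378 to 134433351), had 145 long-read UMIs on each side but 32 and 26 short-read UMIs. Its isoform from 134415471 to 134432335 numbered 6 held 60.7% and 27.6% (-43.2 to -21.9 points), and the isoform of the same ends numbered 3 held 7.59% and 35.9%. The deep barcodes lay between, at 43.6%. Without the cell with most UMIs of the gene on each side the difference was -39.5 points, and with equal weights -23.7. Msn encodes moesin, which links actin to the membrane. Its reference transcript ENSMUST00000135027.1, annotated without a coding sequence, held 26.1% of 142 UMIs, in 9 cells, and 3.0% of 134, in 2 cells, and the deep barcodes had 3.5%. Msn-203, also without a coding sequence, held 38.0% and 60.4%, and the protein-coding Msn-201 held 19.7% and 21.6%. For Stx5a, a SNARE of the Golgi, the reference isoform ENSMUST00000176381.7 held 18.6% and 41.2% of 102 UMIs on each side, from 8 and 11 cells. Tmbim6, an inhibitor of cell death in the endoplasmic reticulum, had an isoform at 75.9% and 54.3% (-30.7 to -11.7 points).

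For 2 of these genes 1 cell decided the value. Crip1, a LIM-domain protein, had an isoform at 36.7% of 319 UMIs in the Myod1-0 cells and 2.4% of 125 in the Myod1-positive cells, and 115 of its 117 UMIs were in 1 cell. Without the top cell of the gene on each side its difference was 1.65 points. Gm42418, which overlaps CT010467.1 on the other strand of chromosome 17, had an isoform at 68.8% of 375 UMIs and 35.8% of 576. Of the 576 UMIs 253 were in 1 cell, and without the top cells the difference was -4.75 points. Reads of the overlapping pair cannot be assigned with certainty. Dusp1 encodes a phosphatase that ends MAP kinase signals, and its reference isoform held 83.6% of 280 UMIs and 63.4% of 205 (-27.97 to -12.3 points), from 26 of 32 and 24 of 32 cells.

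The remaining genes of the 20 are given by their shares on the sides. Serf2 had an isoform at 31.2% and 9.2%, and the mitochondrial calcium uniporter subunit Smdt1 one at 72.2% and 92.1%. Ivns1abp, which binds actin, went from 37.8% to 56.4% on its reference isoform and kept 19.4 points with equal weights. Tmtc2 and the host gene of small nucleolar RNAs Snhg12 went from 32.1% to 51.3% and from 67.4% to 86.3%. With equal weights the 20 genes all kept their direction, and 9 kept at least 50% of their size. Among those with fewer than 100 UMIs, named here after their values were seen, the largest differences were in Vmp1 (67.6% of 71 UMIs and 15.5% of 71), Ppp1r15b (64.6% of 65 and 12.7% of 71) and Slc7a6os (8.57% of 70 and 60% of 105).

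**Figure D4:**
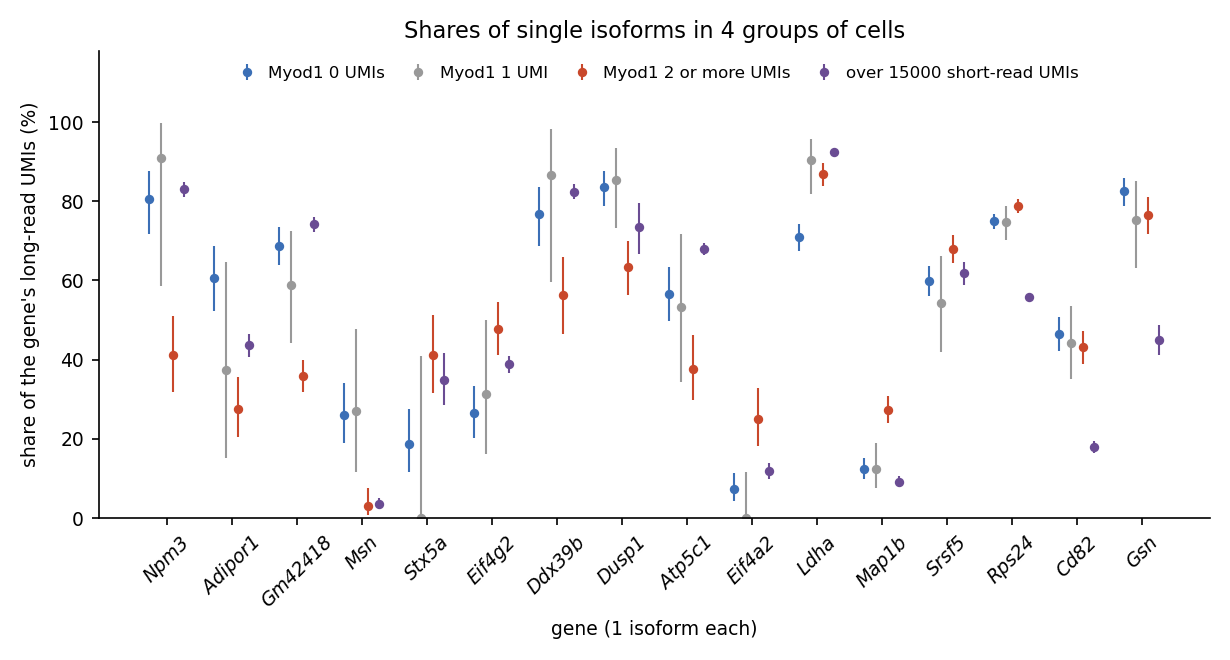
Each point is the share of 1 isoform in its gene's long-read UMIs, in percent, for Myod1-0 cells, cells with 1 UMI, Myod1-positive cells and barcodes with over 15000 short-read UMIs; bars are exact 95% binomial intervals, which cover counting error only. Npm3 is at 80.6% and 41.3% on the sides, whereas Rps24, Cd82 and Gsn lie close together on the sides and apart from the deep barcodes.

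Genes with 500 or more UMIs on each side were measured more precisely and differed less. Ldha, the lactate dehydrogenase subunit of muscle, was highest: its reference isoform held 70.9% of 664 UMIs and 86.9% of 543 (11.4 to 20.4 points). In the Myod1-0 cells 144 of the 664 UMIs were in 1 cell, and without the top cells the difference was 5.51 points, and with cells split by long-read Myod1 it was -5.33. Map1b, a microtubule protein, had a short isoform from 99507061 to 99516672 at 12.3% and 27.4%, and with equal weights the difference was 0.91 points. Emp1, a membrane protein of the claudin relatives, had one at 29.3% and 42.1%, which with equal weights differed by -1.97 points, and the small GTPase Gem one at 50.9% and 62.4%. Serpinh1, the collagen chaperone, went from 45.1% to 35.6% on its reference isoform (-13.8 to -5.2 points). Fgfr1, a receptor of fibroblast growth factors, Myc and Rpl27 had isoforms at 36.1% and 44.2%, 53.8% and 61.9%, and 85.2% and 77.8%. Srsf5, a splicing factor of the SR family, went from 59.9% to 67.9% on ENSMUST00000094693.10 (2.9 to 13.1 points), and with equal weights the difference was 14.3 points. CT010467.1 had -10.7 points, and 1.27 without the top cells.

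Pairs of reference isoforms that differ by a known exon allow a closer look at which sequence was included. Uap1, an enzyme that makes UDP-N-acetylglucosamine, was looked at after its values were seen. Uap1-203 carries a coding exon of 51 bases that Uap1-202 skips (chr1:170147996-170148046, minus strand, GRCm38). The exon is shown in capitals between 15 bases of each neighbouring exon, read from the Gencode transcript sequences:
Uap1-203 exon: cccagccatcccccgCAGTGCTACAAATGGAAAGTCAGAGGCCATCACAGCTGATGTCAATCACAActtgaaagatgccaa

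Of the UMIs on these 2 isoforms the one with the exon held 74.8% (110 of 147) in the Myod1-0 cells and 96.3% (129 of 134) in the Myod1-positive cells, a difference of 21.4 points (13.6 to 29.3). The deep barcodes had 84.2% of 323. The 37 UMIs without the exon in the Myod1-0 cells came from 9 cells, and the 5 in the Myod1-positive cells from 4. The cells with 1 Myod1 UMI had 52.6% (10 of 19), below both sides, so the share did not follow the Myod1 count in order.

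Atp5c1, the gamma subunit of the mitochondrial ATP synthase, has an exon of 37 bases in Atp5c1-203 that Atp5c1-201 lacks and that carries the stop codon (chr2:10056770-10056806, minus strand). Its first 15 bases are in capitals after the end of the exon before it, and the first 4 of them are coding and precede the stop codon:
Atp5c1-203 exon start: tggggctgctgctctGGATTAATGAAAATC

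Atp5c1-203 held 56.7% of 217 UMIs and 37.8% of 143 of the gene (-28.8 to -8.4 points), and with cells split by long-read Myod1 the difference turned to 15.5 points. Of the UMIs on this pair, however, it held 60.9% of 202 and 52.9% of 102, a difference of -7.95 points with an interval from -19.5 to 3.70 that includes 0. The larger difference over the gene also counts an isoform without a reference name, at 2.3% and 16.8%. The deep barcodes had 71.6% of 3329 on the isoform with the exon.

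Rps24, a ribosomal protein of the small subunit, gave the same pair shares on both sides within a few points. Its transcripts can end with different exons, and the 20-base exon of Rps24-202 (chr14:24495430-24495449, plus strand), shown in capitals, is absent from Rps24-210, where the last exon begins with the capitals of the second line:
Rps24-202: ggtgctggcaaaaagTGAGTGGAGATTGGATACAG
Rps24-210: ggtgctggcaaaaagCCAAAGGAGTAG

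Of the UMIs on this pair, Rps24-210 held 14.3% of 280 in the Myod1-0 cells and 14.2% of 247 in the Myod1-positive cells, a difference of -0.12 points (-6.07 to 5.97). In the deep barcodes it held 54.5% of 2371. Most Rps24 UMIs were on an isoform without a reference name, at 74.9% of 2271, 78.9% of 2233 and 55.9% of 15375. Cd82, a tetraspanin, and Gsn, the actin-severing gelsolin, also lay closer together on the sides than to the deep barcodes. The reference isoform ENSMUST00000099696.7 of Cd82 held 46.5% of 553 and 43.1% of 559 on the sides and 17.8% in the deep barcodes. ENSMUST00000028239.7 of Gsn held 82.5% of 479 and 76.6% of 334 (-11.6 to -0.23 points) and 44.96% in the deep barcodes. Against all 155 cells, the deep barcodes differed by 20 points or more in 122 of the 1226 genes (9.95%), and in 3 of the 174 genes with 500 or more UMIs (1.72%), namely Cd82, Rps24 and Pabpc1, a poly(A)-binding protein. Pabpc1-201 held 51.9% and 49.9% on the sides and 77.5% in the deep barcodes. It was named after its value was seen.

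Among the markers themselves no isoform differed by 10 points. The reference isoform of Myod1 held 78.0% of 91 UMIs in the Myod1-0 cells and 88.0% of 4444 in the Myod1-positive cells. Chrdl2 had its largest difference on an isoform at 29.3% and 37.6% (-2.6 to 18.9 points), Heyl on one at 16.4% and 8.2% (-15.9 to -0.9 points) and Spry1 on one at 14.2% and 10.6% (-9.4 to 2.3 points).

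The gene lists chosen for this tissue are given by counts, next to 120 of 1226 genes and a median largest difference of 8.83 points over all genes. All genes had a median of 115.5 UMIs on the side with fewer. The lists had more, from 125 for respiratory chain genes to 1819 for ribosomal protein genes. With 200 to 499 UMIs, 2 of 202 of all genes reached 20 points (median 5.55). A deeper list is therefore to be read beside genes of like depth. Of 80 ribosomal protein genes none reached 20 points and the median was 1.11 points, with a median of 1819 UMIs on the side with fewer. The highest was Rpl7l1, at 2.2% and 19.4%, with 136 and 165 UMIs. Of 33 translation factor genes 3 reached 20 points (median 7.47): Eif4a3, a core subunit of the exon junction complex, whose reference isoform held 71.2% of 59 and 37.2% of 86, Eif2s3y, and Eif4g2. The reference isoform of Eif2s3y, a Y-linked initiation factor, held 28.8% and 53.5%, a difference of 24.7 points that became -2.48 with equal weights.

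None of 27 SR and hnRNP genes reached 20 points (median 8.11, at a median of 219 UMIs on the side with fewer). The highest were Srsf10 (48.3% and 31.5%), Hnrnpl (3.8% and 20.3%) and Ptbp1 (3.4% and 19.8%). Of 13 immediate-early genes, which respond within minutes to dissociation and growth signals, Fosb (35.9% of 78 and 11.9% of 67) and Dusp1 did (median 7.88). With cells split by long-read Myod1 the difference of Fosb turned to 24.8 points. None of 7 myogenic and Notch genes did (median 8.26). None of 17 cytoskeleton genes did (median 3.78 at a median of 419 UMIs, highest Tpm1). Nor did any of 14 surface and niche genes (8.41 at 193.5 UMIs, Cd151) or of 27 heat shock and folding genes (5.48 at 262 UMIs, Dnajb11). Of 27 respiratory chain genes Ndufb5 did, with 19.8% of 111 and 41.0% of 61.

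Where gene and isoform ends could be compared, the isoform that gained most and the one that lost most shared both ends within 100 bases in 27.5% of the 120 genes and in 30.8% of all 1226. Their 3′ ends alone differed in 45% and 37.0%, and their 5′ ends alone in 11.7% and 15.1%. The largest difference was on an isoform with a reference name in 39 of the 120 genes and in 332 of all 1226. The share of all long-read UMIs on isoforms without a reference name was 59.9% in the Myod1-0 cells and 60.9% in the Myod1-positive cells. In the cells with 1 UMI it was 57.9%. The difference between the sides was 1.05 points (0.88 to 1.22), with an interval that covers counting error only and is too narrow. Single cells ranged from 49.1% to 75.3% on the Myod1-0 side and from 51.6% to 66.5% on the Myod1-positive side. Over cells the mean was 59.9% ± 4.15 (SD, n = 72) and 61.1% ± 2.41 (SD, n = 72). The deep barcodes had 54.6%.

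The short reads show which genes differed in level between the sides. Of 1990 genes with at least 50 short-read UMIs, Myod1 left out, 64 (3.22%) differed by 2-fold or more after adding 10 CPM, 28 (1.41%) higher and 36 (1.81%) lower in the Myod1-positive cells. Without the 6 cells with markers of other types or Rn7sk the counts were 33 (1.75%) and 13 (0.688%) of 1889. The lower genes were led by the small nuclear RNA Rn7sk and by predicted transcripts, with these UMIs on the sides: Rn7sk (894 and 13 UMIs), Gm24270 (341 and 3), Gm23935 (552 and 11), Gm26315 (277 and 8) and Gm26917 (859 and 134). In Rn7sk 595 of the 894 UMIs were in 1 cell. Without the 6 cells, its log2 fold went from -5.64 to 0.28. In other cells of the 90% aliquot Rn7sk had a log2 fold of -2.92. Mest (102 and 4 UMIs) went from a log2 fold of -3.57 to -0.60 without the 6 cells.

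Without those cells the predicted transcripts named above had log2 folds of -0.05 to 0.47. Ccl2 and Lgals3 differed also without them. Ccl2, a chemokine that draws monocytes, had 124 and 14 UMIs in 12 and 7 cells, a log2 fold of -2.77, which was -2.87 without the 6 cells and -1.15 in the other cells of the 90% aliquot. Lgals3, a galectin, had 50 and 8 UMIs and log2 folds of -2.08, -1.57 and -0.85 in that order.

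Among the higher genes, Cxcl2, a chemokine that draws neutrophils, had 76 and 518 UMIs in 12 and 14 cells, with 128 UMIs in 1 cell, and its log2 fold was 2.68 here but -0.43 in the other cells of the 90% aliquot. Srxn1, which repairs oxidized peroxiredoxins, had 51 and 169 UMIs in 20 and 37 cells (log2 fold 1.63, and 0.33 in the 90% aliquot). Naa50, an acetyltransferase, was seen in 18 and 37 cells (1.60 and 0.34), Marcksl1, which binds actin, in 20 and 33 (1.47 and 0.36), and the growth factor Hbegf in 13 and 13 (1.45 and 0.62). Sat1, which acetylates polyamines, had 149 and 394 UMIs (1.37 and 0.15). Zfp948, Trip10, Mrpl48, Sept11, Tnfaip6 and Ist1 had log2 folds of 1.44, 1.35, 1.27, 1.27, 1.25 and 1.22.

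Of the 28 higher genes 24 had the same direction in the other cells of the 90% aliquot and 0 reached 2-fold there. Of the 36 lower genes 30 and 11 did. The share of all 1990 genes with the same direction was not counted, so 24 and 30 have no background to be read against. Among all 1990 genes 16 reached 2-fold in the other cells of the 90% aliquot. Those cells were not cleared of other types: on the Myod1-0 and Myod1-positive sides there Fabp4 had 88.5 and 0 CPM, Dcn, a fibroblast proteoglycan, 57.8 and 4.83 CPM, and Ly6a 20.8 and 1.93 CPM. Their part in the lower genes was not tested. The median absolute log2 fold was 0.22 in the 10% aliquot and 0.14 in the other cells of the 90% aliquot. There, Heyl and Spry1 had log2 folds of 0.16 and 0.06 and Chrdl2 -0.13.

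**Figure D5:**
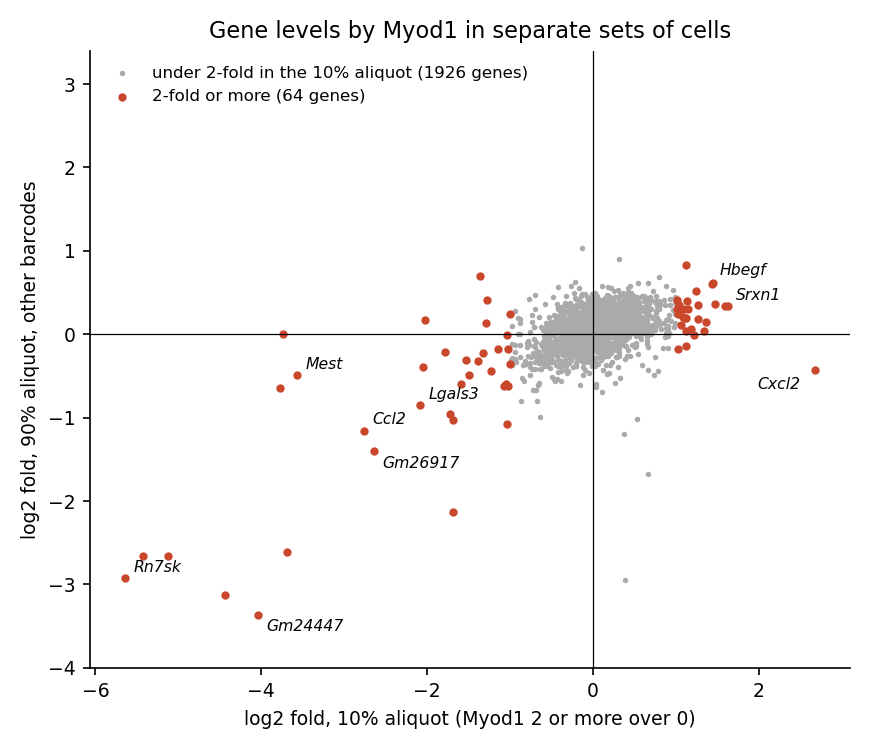
Each point is 1 of 1990 genes, with its log2 fold (Myod1-positive over Myod1-0 cells, 10 CPM added) in the 10% aliquot on the horizontal axis and in the 90% aliquot cells with other barcodes on the vertical axis. The 28 genes that were 2-fold higher in the 10% aliquot lie below 1 on the vertical axis, and Rn7sk is far below 0 on both.

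Within the lists few genes reached 2-fold. Of 61 respiratory chain genes Atp5k (59 and 26 UMIs) was lower and none higher. Its log2 fold of -1.05 was -0.88 without the 6 cells and -0.60 in the other cells of the 90% aliquot, under 2-fold in both. The list had a median log2 fold of -0.33 here and -0.12 in the other cells of the 90% aliquot, against 0.03 over all genes. Of 18 cytoskeleton genes Tubb5, a tubulin, was lower (56 and 25 UMIs), with log2 folds of -1.03, -0.90 and -0.62 in that order. None of 81 ribosomal protein, 36 translation factor, 28 SR and hnRNP, 18 immediate-early, 14 surface and niche, 31 heat shock and 7 myogenic and Notch genes reached 2-fold with all cells. Without the 6 cells Hspa1a, an inducible heat shock protein, was at 1.06 and the immediate-early gene Ier3 at -1.04 on the log2 scale. In the other cells of the 90% aliquot Hspa1a (-2.94), Hspa1b (-1.67), Dnajb1 (-1.19) and Fos (-1.01) were lower by 2-fold or more. In the 10% aliquot they had log2 folds of 0.39, 0.67, 0.38 and 0.53. There, 1 cell of the Myod1-positive side held 75 of 107 UMIs for Hspa1a, 22 of 35 for Hspa1b and 86 of 177 for Dnajb1. On the Myod1-0 side the top cells held 33 of 80, 3 of 20 and 73 of 134. Hspa1a was seen in 18 Myod1-0 cells and 13 Myod1-positive cells. The medians of the SR and hnRNP genes were 0.28 and 0.18, with Srsf1, a splicing factor, at 25 and 55 UMIs. Msc, which encodes a repressor related to Myod1, had 300 and 513 UMIs in 28 and 39 cells (log2 fold 0.76, and 0.38 in the 90% aliquot).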

How the data were processed

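The authors counted short-read UMIs per gene with scPipe and long-read UMIs per isoform with FLAMES, which uses minimap2 2.17, on GRCm38.p6 with Gencode vM24, and deposited raw counts, and their processing notes also name Cell Ranger 1.3. Long reads were matched to short-read barcodes within an edit distance of 2. Symbols, coordinates and transcript sequences came from Gencode vM21. Isoforms without a reference name carry a gene, start, end and number, and their exons were not analysed here. UMIs were summed over the cells of each side in Python 3.11.15 with scipy 1.17.1, and scripts were tested on simulated data. Shares carry exact (Clopper-Pearson) and differences Newcombe 95% intervals, which cover counting error only. No doublet caller was run. Genes were named by rule: the 20 largest isoform differences at 100 UMIs, the 10 largest at 500, up to 4 per list, 12 levels in each direction, and the markers with Rps24, Cd82 and Gsn. From the lists, not every gene is described. Members, lists and rules were chosen with earlier results of these data known. The comparison had been planned with the aliquots as separate cells, but their short-read tables shared barcodes. Why they did was not tested. Results of some genes are not reported here.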

Additional observations from a re-analysis of the deposited data

How the results depend on the processing

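With 1 capture there was no replicate to leave out, and under 100 long-read UMIs a gene's share is known only to within wide counting intervals. No paired analysis was possible because the sides compared are different cells of 1 aliquot, the labels give no replicate numbers, and no result comes from a test. The settings that left out the 6 cells or the shared barcodes were chosen after seeing the data. In each case below the cause was not tested. The 120 of 1226 genes with an isoform difference of 20 points became 64 with a window of 5000 to 10000 UMIs, which kept 46 and 47 cells. They became 26 when cells were split by long-read Myod1, which left 30 cells with 231583 UMIs on the zero side. The count was 8 of 160 with reference-named isoforms by intron chain, 58 with isoforms of at least 15 UMIs and 275 with at least 30 UMIs on each side. It was 12 of 697 with 100 and 2 of 376 with 200. The genes tested differed between settings, so a lower count alone is not a lower share. A limit of 10 points gave 522 genes and 30 points gave 24. The other settings gave 80 to 137. Of the 20 largest differences at 100 UMIs, 11 kept their direction and at least 50% of their size with the long-read split, 9 with equal weights for cells and 4 of 6 with reference-named isoforms. The difference in UMIs without a reference name, 1.05 points, was 1.51 in the narrow window, 0.610 for Myod1 at 1 UMI or more, 0.174 with the long-read split, 1.45 after thinning cells to 3000 UMIs and 1.35 with isoforms of at least 15 UMIs. With reference-named isoforms alone it has no value. The 64 of 1990 genes with a 2-fold level difference became 37 of 1404 in the narrow window (21 higher and 16 lower). They became 98 of 1908 with the long-read split (73 and 25), 24 of 1990 with 50 CPM added (5 and 19) and 12 of 680 at 200 UMIs. In the 90% aliquot they were 35 of 6619 (2 and 33), or 41 of 5838 without shared barcodes (5 and 36). Over 65 genes, 648 of 666 single values kept their direction and 18 did not. Of the 666, 78 moved outside the interval of their main difference and 4 reversed a difference of 20 points or more. Most settings reuse the cells and UMIs by which these genes were picked, so a kept direction is not a separate result. Of differences of 20 points or more, those of Crip1 (30.9 points with the long-read split, 1.65 without the top cells), Fosb (24.8 with the long-read split) and Eif2s3y (-2.48 with equal weights) turned. Smaller ones turned for Atp5c1 (15.5), Ldha (-5.33), Atf3, Heyl, Srsf10, Rps21, Dnajb6 and Chrdl2 with the long-read split, for Emp1 and CT010467.1 with equal weights, and in 1 other setting each for Dnajb1, Cd151, Rps21 and CT010467.1. The ratio of median long-read UMIs kept within the spread between cells.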
